A study of Homo sapiens with 12 samples.

Results

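Docetaxel was compared with vehicle in LNCaP cells kept in 2 sera, on 8 of the 12 arrays of the series. LNCaP is an established human prostate cancer line of luminal type that responds to androgen. The 8 arrays were taken by their labels and fall into 4 groups of 2, namely vehicle and docetaxel in serum that had been treated with charcoal and dextran, and vehicle and docetaxel in full serum. Docetaxel was given at 1 nM for 16 h and the vehicle was ethanol. The cells of every group, controls included, carried the control plasmid MSCV-LMP, and were treated near confluency. The other 4 arrays are cabazitaxel at the same 1 nM for 16 h in the same sera; they share the estimate of the spread and are used once, for a direct comparison of both drugs. RNA was amplified, labelled with biotin and hybridised to whole-transcript arrays.

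Docetaxel is a taxane. It binds the beta subunit of tubulin inside the microtubule, slows the exchange of subunits at the microtubule ends and so disturbs the mitotic spindle; cells that stay in mitosis too long may die or leave it without dividing. Outside mitosis microtubules also serve as tracks for the transport of proteins and vesicles. Treatment of serum with charcoal and dextran removes steroids, so the serum pair sets a low and a normal supply of androgen.

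No gene passed the test for docetaxel against vehicle. Averaged over the sera, 0 of 11105 genes (0%) were called by limma at an adjusted p under 0.05, and the smallest adjusted p of that limma fit was 0.757. The 12 named genes with lower values under docetaxel were chosen by p. Of these, 4 were on the list of DNA replication genes and 6 on that list or the list for the G1/S transition. Those lists hold 26 and 25 of the 11105 genes tested. The 12 genes stood lower by 0.18 to 0.37 on the log2 scale. Over the whole list, 23 of 26 tested DNA replication genes lay below vehicle, against 45% of all genes tested (55% lay above). The lists were chosen with earlier results of these data known, so these counts describe the genes and test nothing.

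The arrays had the profile of luminal prostate cells. Of 19 luminal markers 10 were measured above the filter, among them KLK3, which encodes prostate-specific antigen, with log2 values of 9.12 to 10.52 over the 8 arrays, FOLH1, prostate-specific membrane antigen, with 9.58 to 10.11, and EPCAM, an epithelial adhesion molecule, with 7.66 to 8.01. The single leukocyte marker above the filter, CD68, had values of 5.10 to 5.34, and the basal keratin KRT14 4.41 to 4.68, close to the median of all values, 4.48. Within a group the 2 arrays correlated across genes with r between 0.9863 and 0.9922, and the SD over genes of their log2 difference lay between 0.141 and 0.184. The number of arrays, 2 in a group, limits the precision.

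Promoters are shown for 5 genes with lower values under docetaxel, as examples of windows with and without an E2F-type motif. MCM10, PCNA and CDC45 are on the DNA replication list, DTL is on the G1/S list and RAD54L on the DNA repair list; the 5 were chosen after their values and their matches were seen. The window runs from 250 bases before to 50 after the annotated start, from RefSeq on GRCh38.p14. Capitals mark every match to an E2F-type motif (TTCCCGC or TTGGCGC) or to CCAAT, on either strand; a TTGGCGC that follows an A also holds a CCAAT match on the other strand. The promoters of DTL (plus strand, chr1:212035498-212035797) and RAD54L (plus strand, chr1:46247438-46247737) held E2F-type matches, and those of PCNA (minus strand, chr20:5119909-5120208) and MCM10 (plus strand, chr10:13161308-13161607) held CCAAT matches and no E2F-type match in this window. That of CDC45 (plus strand, chr22:19479216-19479515) held neither motif, nor did that of FEN1, which is not printed.
DTL: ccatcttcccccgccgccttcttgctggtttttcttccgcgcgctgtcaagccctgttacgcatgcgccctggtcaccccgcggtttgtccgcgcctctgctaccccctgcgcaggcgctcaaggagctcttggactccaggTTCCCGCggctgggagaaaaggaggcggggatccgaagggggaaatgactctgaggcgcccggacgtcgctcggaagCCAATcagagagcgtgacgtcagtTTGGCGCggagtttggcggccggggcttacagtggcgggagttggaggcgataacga
RAD54L: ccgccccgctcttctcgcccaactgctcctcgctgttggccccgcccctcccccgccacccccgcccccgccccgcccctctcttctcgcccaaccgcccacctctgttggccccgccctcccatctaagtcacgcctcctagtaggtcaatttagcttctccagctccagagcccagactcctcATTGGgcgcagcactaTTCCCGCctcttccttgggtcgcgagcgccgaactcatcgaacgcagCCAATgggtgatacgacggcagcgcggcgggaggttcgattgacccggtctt
PCNA: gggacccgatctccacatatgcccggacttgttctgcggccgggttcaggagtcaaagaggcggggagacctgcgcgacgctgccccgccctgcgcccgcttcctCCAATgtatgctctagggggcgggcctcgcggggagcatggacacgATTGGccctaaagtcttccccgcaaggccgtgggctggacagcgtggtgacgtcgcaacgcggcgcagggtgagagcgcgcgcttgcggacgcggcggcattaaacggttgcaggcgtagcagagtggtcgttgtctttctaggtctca
MCM10: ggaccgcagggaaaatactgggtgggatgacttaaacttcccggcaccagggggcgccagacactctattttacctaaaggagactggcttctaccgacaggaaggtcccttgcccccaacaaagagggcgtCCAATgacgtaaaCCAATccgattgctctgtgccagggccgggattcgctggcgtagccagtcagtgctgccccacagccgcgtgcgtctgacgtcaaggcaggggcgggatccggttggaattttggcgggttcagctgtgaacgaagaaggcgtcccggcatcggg
CDC45: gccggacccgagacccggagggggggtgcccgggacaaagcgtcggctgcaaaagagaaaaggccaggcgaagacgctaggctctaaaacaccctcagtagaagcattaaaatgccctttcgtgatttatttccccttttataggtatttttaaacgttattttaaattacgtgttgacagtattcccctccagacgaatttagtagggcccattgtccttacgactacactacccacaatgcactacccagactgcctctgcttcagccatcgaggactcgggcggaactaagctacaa

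An E2F-type match was found in 13 of the 21 DNA replication genes with an entry in the promoter table (61.9%) and in 12 of 20 genes of the G1/S list (60%). Over all 27305 promoters of the same length the share was 9.15%, and over the 8504 tested genes that matched the table by symbol it was 13%. DNA repair genes, 9 higher and 11 lower under docetaxel, had a match in 8 of 17 promoters (47.1%). Targets of p53, 16 higher and 2 lower, had a match in 4 of 16 (25%). Mitosis genes had a match in 6 of 31 promoters (19.4%). These held TTTGAA, the core of the element known as CHR, in 20 of 31 (64.5%), against 15.6% of all promoters. A match is a description of the letters and not a measured site. Of the 12 named genes with lower values, 3 of the 9 with a promoter entry held an E2F-type match, and of the 12 with higher values 1 of 9.

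The DNA replication list covers the factors that license origins, the helicase, the sliding clamp and its partners. Of 53 listed genes 26 were named by the annotation, and all 26 were tested. None was called, against 0% of all genes. At an unadjusted p under 0.05, 13 were lower and 0 higher in limma; over all genes tested 2.02% were lower at that level and 4.03% higher. Without charcoal docetaxel replicate 2 the count of 13 became 8. The median log2 difference of the 26 was -0.151, beside 0.00913 for all genes tested. It was -0.195 in charcoal serum, where 25 of 26 were lower while 50.8% of all genes were higher, and -0.113 in full serum, where 18 were lower while 57.5% of all genes were higher.

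The mean log2 value over the 26 genes was 6.669 and 6.602 on the charcoal vehicle arrays and 6.477 and 6.406 on the charcoal docetaxel arrays. In full serum it was 6.753 and 6.748 with vehicle and 6.657 and 6.658 with docetaxel. The docetaxel arrays lay below the vehicle arrays within each serum, and the charcoal vehicle and full docetaxel arrays overlapped. For 8 of the 26 genes the docetaxel arrays lay wholly below the vehicle arrays in both sera, as they did for 2.57% of all genes. The list lay among well-measured genes: 24 of the 26 were among the brightest 3702 genes, and 22 of these 24 were lower with docetaxel, while 64.9% of those 3702 genes were higher. In RNA from a whole culture, fewer cells that express a gene and less RNA per cell cannot be told apart.

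**Figure D1:**
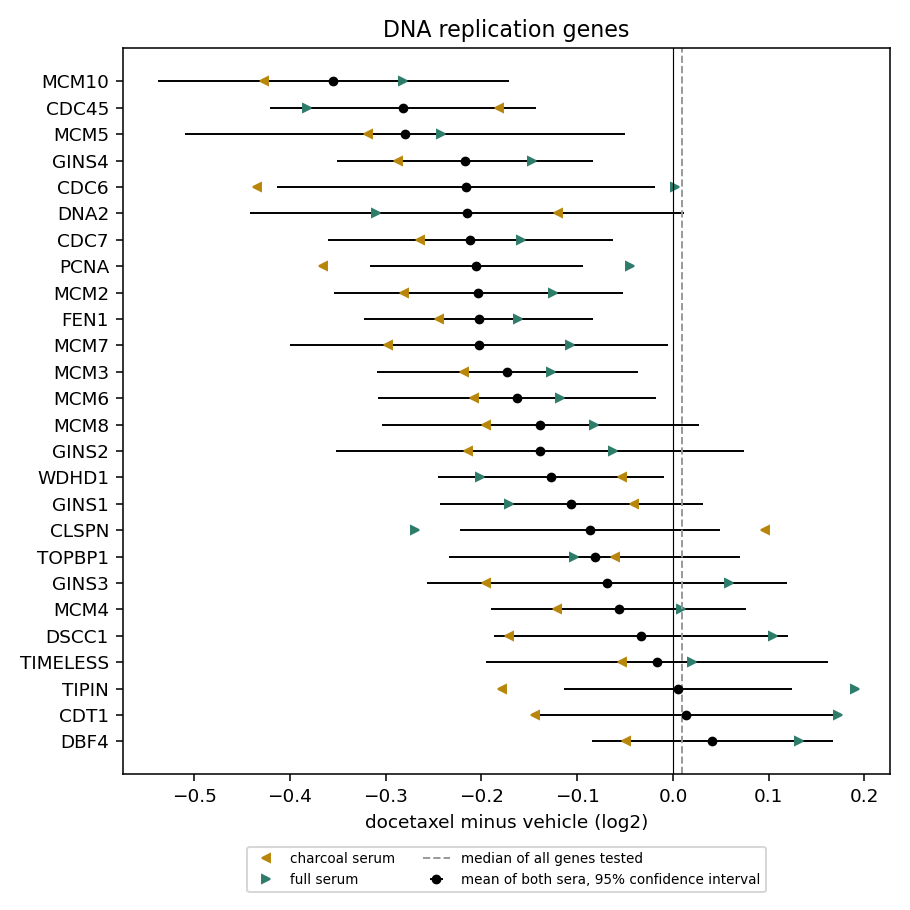
Docetaxel minus vehicle for the 26 tested DNA replication genes on the log2 scale, as the mean of both sera (black, with its 95% confidence interval from limma), in charcoal serum (left-pointing triangles) and in full serum (right-pointing triangles). The dashed line is the median of all 11105 genes tested, 0.00913; 23 of the 26 black points lie below 0, and no gene passed the adjusted threshold.

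MCM10, which helps to activate the replicative helicase, had log2 values of 7.01 and 6.78 with vehicle and 6.67 and 6.27 with docetaxel in charcoal serum. In full serum the values were 7.05 and 7.04 with vehicle and 6.71 and 6.82 with docetaxel. The docetaxel arrays were the lower ones in each serum with no overlap. The mean difference was -0.35, with a 95% confidence interval of -0.54 to -0.17 and an adjusted p of 0.757 in limma.

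CDC45, a subunit of the active helicase, stood at 6.59 and 6.58 with vehicle against 6.44 and 6.37 with docetaxel in charcoal serum. In full serum it stood at 7.08 and 6.95 against 6.64 and 6.63. The arrays of both treatments were apart in each serum, and the difference was -0.18 in charcoal and -0.38 in full serum. GINS4, of the GINS complex of the same helicase, differed by -0.29 and -0.15, and FEN1, the nuclease that trims Okazaki fragments, by -0.24 and -0.16.

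PCNA, the sliding clamp, differed in charcoal serum. Its values there were 8.28 and 8.27 with vehicle and 7.92 and 7.90 with docetaxel, so that docetaxel lay 0.37 lower with no overlap. In full serum the values were 8.31 and 8.33 with vehicle and 8.20 and 8.35 with docetaxel, which overlap. The difference between the sera was 0.32 (95% confidence interval 0.10 to 0.54), with an adjusted p of 0.999 in limma, and did not pass. CDC6, which loads the MCM helicase, had the same layout, with -0.43 in charcoal serum and 0.00 in full serum. The values of CDC6 were 7.38 and 7.37 against 7.12 and 6.76 in charcoal serum and 7.69 and 7.62 against 7.74 and 7.59 in full serum. MCM2, a subunit of the helicase ring, stood at -0.28 and -0.13.

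Over the list, 20 of 26 genes had a lower difference in charcoal than in full serum. The other 6 had the reverse. Among these was CLSPN, named after its value was seen, at 0.10 in charcoal and -0.27 in full serum. The docetaxel arrays lay wholly below vehicle for 19 of 26 genes in charcoal serum, where 16.4% of all genes did, and for 10 in full serum, where 12.5% did. In full serum those of CDT1 (0.17), DBF4 (0.13) and TIPIN (0.19) lay wholly above vehicle. Full minus charcoal had a median of 0.121 over the list and of 0.017 over all genes, 55.5% of which lay above 0. No gene of the list was called for that difference (0% of all genes were).

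The list for nucleotide supply and the G1/S transition held 25 tested genes, of which 21 were lower and 4 higher, with a median of -0.0737. Over all genes tested 2.02% were lower and 4.03% higher at an unadjusted p under 0.05 in limma. In limma 7 were lower and 1 higher at an unadjusted p under 0.05; the 7 became 4 without charcoal docetaxel replicate 2 and 4 without full vehicle replicate 1. DTL, the substrate receptor of a ubiquitin ligase that acts on chromatin-bound PCNA, had 7.85 and 7.67 with vehicle and 7.39 and 7.47 with docetaxel in charcoal serum. In full serum it had 8.18 and 7.78 against 7.69 and 7.74. The arrays did not overlap in either serum, and the vehicle arrays of full serum were farther from each other than the higher docetaxel array was from the lower vehicle array. CCNE2, a cyclin of the G1/S transition, stood at 6.55 and 6.54 against 6.28 and 6.29 in charcoal serum and at 6.64 and 6.59 against 6.55 and 6.49 in full serum. E2F8, a repressor of the E2F family, stood at -0.34 in charcoal and -0.29 in full serum, and CDC25A, a phosphatase that activates cyclin-dependent kinases, at -0.13 and -0.25. The single gene of the list that was higher at that level was E2F3, an activator of the E2F family, at 0.27. E2F1, its relative, stood at -0.07 with an interval of -0.23 to 0.08.

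DNA repair genes had no common direction. Of 20 tested, 9 were higher and 11 lower, with a median of -0.00925. At an unadjusted p under 0.05 in limma 3 were lower and 1 higher, where 2.02% of all genes were lower and 4.03% higher. The median was 0.0217 without full vehicle replicate 2 and 0.0201 without full docetaxel replicate 2. RAD54L, a motor protein of homologous recombination, had 5.65 and 5.77 with vehicle and 5.49 and 5.59 with docetaxel in charcoal serum, and 6.002 and 5.93 against 5.66 and 5.59 in full serum. The nuclease EXO1 stood at -0.18 and the homologous recombination gene XRCC2 at -0.17. ATR, the kinase that senses stalled forks, stood at 0.13, and the mismatch repair gene PMS2 at 0.15.

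Mitosis genes, the processes a taxane acts on most directly, were split. Of 43 tested, 22 were higher and 21 lower. At an unadjusted p under 0.05 in limma 3 were higher and 3 lower, where 4.03% of all genes were higher and 2.02% lower. The higher ones numbered 1 without docetaxel replicate 1 of either serum, and the lower ones 1 without docetaxel replicate 2 of either serum or full vehicle replicate 2. The median was 0.00538, and it turned to -0.027 without full docetaxel replicate 1, to -0.0139 without charcoal docetaxel replicate 1, to -0.00396 without charcoal vehicle replicate 1, to -0.00307 with arrays centred on their medians and to -0.0157 after quantile normalisation. The mean over the 43 genes was 6.524 and 6.557 with vehicle against 6.582 and 6.477 with docetaxel in charcoal serum. In full serum it was 6.564 and 6.599 against 6.637 and 6.575. The arrays overlapped in both sera.

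CCNB1, the cyclin of mitotic entry, had 8.78 and 8.63 with vehicle and 8.77 and 8.72 with docetaxel in charcoal serum and 8.68 and 8.55 against 8.97 and 8.75 in full serum. The arrays overlapped in charcoal serum and not in full serum. Its mean difference was 0.14 (-0.0031 to 0.29), and its relative CCNB2 stood at 0.18 (0.07 to 0.29). PLK1, a kinase of spindle assembly, stood at 0.10 (-0.07 to 0.26), AURKA, the centrosome kinase, at 0.10 (-0.11 to 0.30) and CDC20, the activator of the anaphase-promoting complex, at 0.11 (-0.02 to 0.25). BUB1 (0.17) and KNL1 (0.21), both of the kinetochore checkpoint, were higher and the centromeric histone CENPA (-0.16) lower at an unadjusted p under 0.05. BUB1 stood at 0.28 in charcoal and 0.06 in full serum, KNL1 at 0.24 and 0.17 and CENPA at -0.14 and -0.17. MKI67, the proliferation antigen, stood at -0.06 (-0.35 to 0.23).

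HASPIN, the kinase that marks histone H3 at centromeres, was the lowest of the mitosis list. It had 6.70 and 6.49 with vehicle and 6.06 and 6.01 with docetaxel in charcoal serum, and 6.71 and 6.46 against 6.41 and 6.40 in full serum. Its differences were -0.56 and -0.18. WDR76, a WD-repeat protein that is on none of the lists, had a similar range. It had 7.56 and 7.35 against 7.16 and 7.04 in charcoal serum and 7.74 and 7.60 against 7.33 and 7.40 in full serum. The docetaxel arrays of both genes were the lower ones in each serum.

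Genes that build or steer microtubules showed no called member either. Of 39 kinesins, the motors that walk along microtubules, 23 were higher and 16 lower with a median of 0.0103. At an unadjusted p under 0.05 in limma 3 were higher and 4 lower, where 4.03% of all genes were higher and 2.02% lower. The 4 became 1 without charcoal vehicle replicate 1 or full docetaxel replicate 2, and 2 without charcoal docetaxel replicate 2, full docetaxel replicate 1 or any 1 of the full vehicle arrays. The 3 became 1 without full docetaxel replicate 1, where the median was -0.00148, and 5 without charcoal docetaxel replicate 2 or full vehicle replicate 1. KIF5B, the conventional kinesin heavy chain, stood at 0.20 and the depolymerising KIF2A at 0.18, while KIF26A stood at -0.16, KIF18B at -0.14 and KIF17 at -0.12. KIF11, the spindle kinesin, stood at 0.03 (-0.12 to 0.18). KIF2C, another depolymeriser, stood at 0.00 (-0.23 to 0.23).

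Of 40 genes for microtubule-associated proteins, 27 were higher and 13 lower, with a median of 0.0251. At an unadjusted p under 0.05 in limma 2 were higher and 0 lower, where 4.03% of all genes were higher and 2.02% lower. Without full docetaxel replicate 1 21 were higher and 19 lower, with a median of 0.0104, and without charcoal docetaxel replicate 1 23 and 17, with a median of 0.00881. MAP1B, a microtubule-binding protein best known from neurons, had 5.99 and 6.44 with vehicle and 6.31 and 6.84 with docetaxel in charcoal serum, and 6.04 and 5.96 against 6.42 and 6.33 in full serum. The arrays overlapped in charcoal serum and were apart in full serum, and the mean difference was 0.37 (0.11 to 0.63). MAP9, a spindle-associated protein, stood at 0.17, with 0.06 in charcoal and 0.28 in full serum. MAPT, which encodes tau, stood at 0.07 (-0.08 to 0.23), STMN1, which sequesters tubulin dimers, at 0.03 (-0.09 to 0.15) and MAP4 at 0.00 (-0.15 to 0.15). Of 28 centrosome and spindle pole genes, 14 were higher and 14 lower, and 18 and 10 without full vehicle replicate 2. The 19 tubulin genes of the list were not analysed here.

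**Figure D2:**
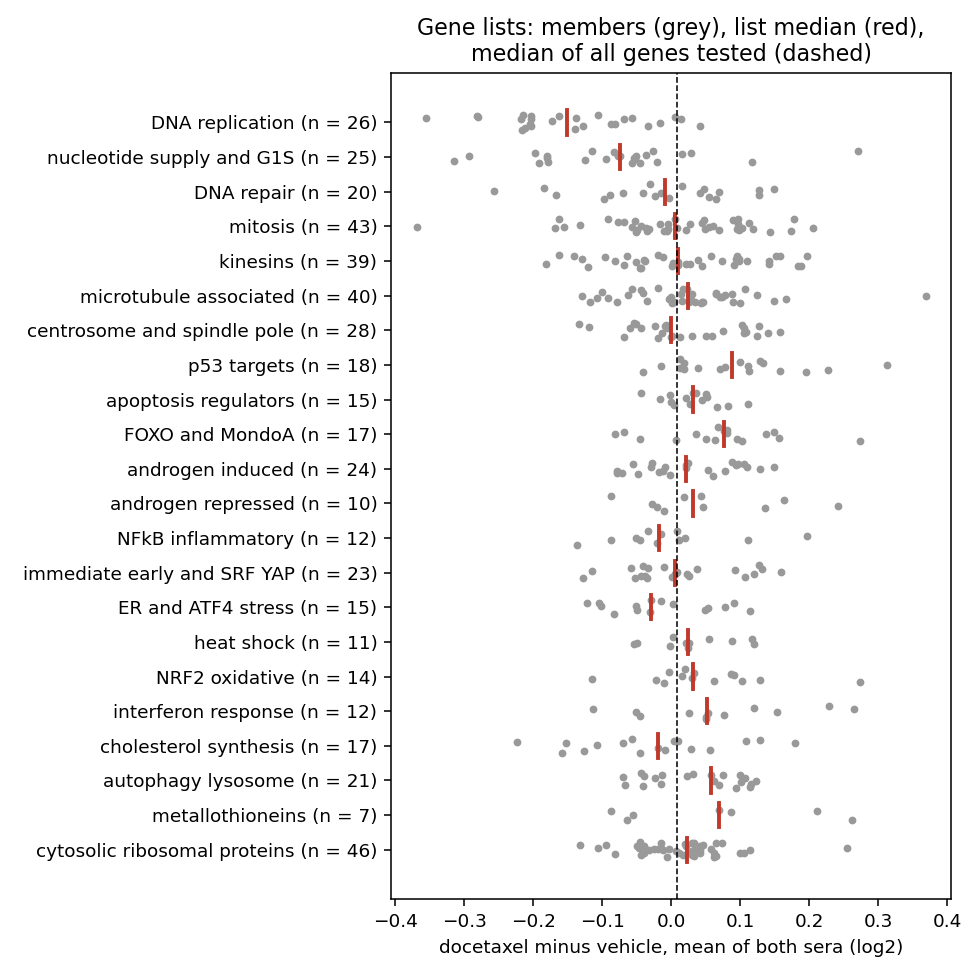
Docetaxel minus vehicle as the mean of both sera on the log2 scale, for the tested members of 22 gene lists (grey points, spread vertically at random for view) with the median of each list in red. The dashed line is the median of all genes tested, 0.00913; the DNA replication list has the lowest median, -0.151, and the p53 targets the highest, 0.089.

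Targets of p53, the transcription factor of the damage response, lay on the other side. Of 36 listed genes 19 were named by the annotation and 18 were tested. Only 4 of the 18 were among the brightest 3702 genes, and all 4 were higher, as were 64.9% of those 3702. Of the 18 tested genes 16 were higher and 2 lower, with a median of 0.089, where 55% of all genes were higher. At an unadjusted p under 0.05 in limma 5 were higher and 0 lower, where 4.03% of all genes were higher and 2.02% lower. The 5 became 3 without charcoal docetaxel replicate 1 and 3 without full docetaxel replicate 1. None was called. TP53INP1, a stress-induced p53 target that also takes part in autophagy, had 8.59 and 8.85 with vehicle and 8.998 and 9.10 with docetaxel in charcoal serum, and 8.13 and 8.11 against 8.40 and 8.43 in full serum. The docetaxel arrays were higher in each serum with no overlap, and the mean difference was 0.31 (0.16 to 0.47). SESN1, a stress-induced inhibitor of mTORC1, stood at 0.23 and SPATA18, which takes part in mitochondrial quality control, at 0.20. CCNG1 stood at 0.16 and the kinase PLK2 at 0.13. In charcoal and in full serum SESN1 stood at 0.25 and 0.21, CCNG1 at 0.12 and 0.19 and PLK2 at 0.16 and 0.11. SPATA18 stood at 0.31 in charcoal and 0.08 in full serum, where its arrays overlapped. BAX, which opens the mitochondrial outer membrane, stood at 0.01 (-0.14 to 0.16).

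Regulators of apoptosis had array values near vehicle. Of 30 listed genes 16 were named by the annotation and 15 were tested, 3 of them among the brightest 3702 genes. Of the 15 tested, 12 were higher and 3 lower, and the median was 0.0311. In limma 0 of the 15 had an unadjusted p under 0.05, where 6.05% of all genes had. The protective BCL2 stood at 0.04 (-0.12 to 0.21), BCL2L1 at 0.03 (-0.12 to 0.18) and MCL1 at 0.08 (-0.05 to 0.22). The death-promoting BAD stood at 0.11 (-0.13 to 0.36) and BIK at 0.05 (-0.08 to 0.19). A difference of 0.5 in array intensity lies outside each of these intervals, which need not bound the RNA of dim genes.

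The list for FOXO factors and the glucose sensor MondoA holds the factors and genes they control. Of its 17 tested genes 14 were higher, with a median of 0.0765. In limma 1 gene had an unadjusted p under 0.05, as had 6.05% of all genes. That count was 3 without charcoal vehicle replicate 1, charcoal vehicle replicate 2 or full docetaxel replicate 2. The gene was TXNIP, which binds thioredoxin and limits glucose uptake. It had 7.95 and 7.90 with vehicle and 8.17 and 8.20 with docetaxel in charcoal serum, and 7.57 and 7.61 against 7.98 and 7.78 in full serum. The docetaxel arrays were higher in each serum with no overlap, and the mean difference was 0.27 (0.14 to 0.41). SESN3 stood at 0.16, ARRDC3, a relative of TXNIP, at 0.14 and CCNG2 at 0.10. Of the factors themselves FOXO3 stood at 0.15, FOXO1 at -0.05 and MLXIP, which encodes MondoA and is named after its value was seen, at -0.08.

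Androgen-responsive genes showed the serum and no called docetaxel difference. Of 24 androgen-induced genes, 13 were higher and 11 lower with docetaxel, with a median of 0.0213. In limma 0 of them had an unadjusted p under 0.05, where 6.05% of all genes had. KLK3 had 9.41 and 9.12 with vehicle and 9.42 and 9.24 with docetaxel in charcoal serum, and 10.24 and 10.52 against 10.16 and 10.15 in full serum. All 4 arrays of full serum were above all 4 of charcoal serum, while docetaxel overlapped with vehicle in charcoal serum and lay below it in full serum. The docetaxel difference of KLK3 was -0.08 (-0.35 to 0.20). KLK2, its neighbour in the kallikrein family, stood at -0.05 (-0.30 to 0.20) and FKBP5, a chaperone of steroid receptors, at 0.02 (-0.14 to 0.18). Of 10 androgen-repressed genes 6 were higher and 4 lower.

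The remaining genes with the smallest p did not form a list. MORN4 had the smallest p of all named genes, with 5.62 and 5.61 against 5.90 and 5.81 in charcoal serum and 5.57 and 5.39 against 5.95 and 5.83 in full serum. SRGAP1 had 5.25 and 5.22 against 5.50 and 5.69 in charcoal serum and 4.95 and 5.03 against 5.22 and 5.37 in full serum. CADPS2, which acts in the release of dense-core vesicles, had 6.11 and 6.39 against 6.44 and 6.42 in charcoal serum and 5.90 and 5.82 against 6.25 and 6.24 in full serum. None of these 3 overlapped within a serum. The other genes of the upper 12 were the lipid transfer protein BLTP3A (0.35), ICE1 (0.37), which takes part in the transcription of small nuclear RNA genes, SH3D19 (0.26), the F-box protein FBXO28 (0.24), and the zinc finger genes ZBTB41 (0.28), ZNF814 (0.28) and ZNF208 (0.42). The other genes of the lower 12 were GLCE (-0.22), an epimerase of heparan sulphate synthesis, the kinase MAP3K11 (-0.21) and the non-coding DGCR11 (-0.21).

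The docetaxel arrays were clear of the vehicle arrays in both sera for 11 of the upper 12 genes, all but ZNF208, and for 10 of the lower 12, all but PCNA and MAP3K11. Since these genes were taken for their small p, this describes them and tests nothing. Over all genes the docetaxel arrays lay wholly above vehicle in both sera for 496 genes (4.47%) and wholly below for 285 (2.57%). The adjusted p of each of the 24 was 0.757 in limma.

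**Figure D3:**
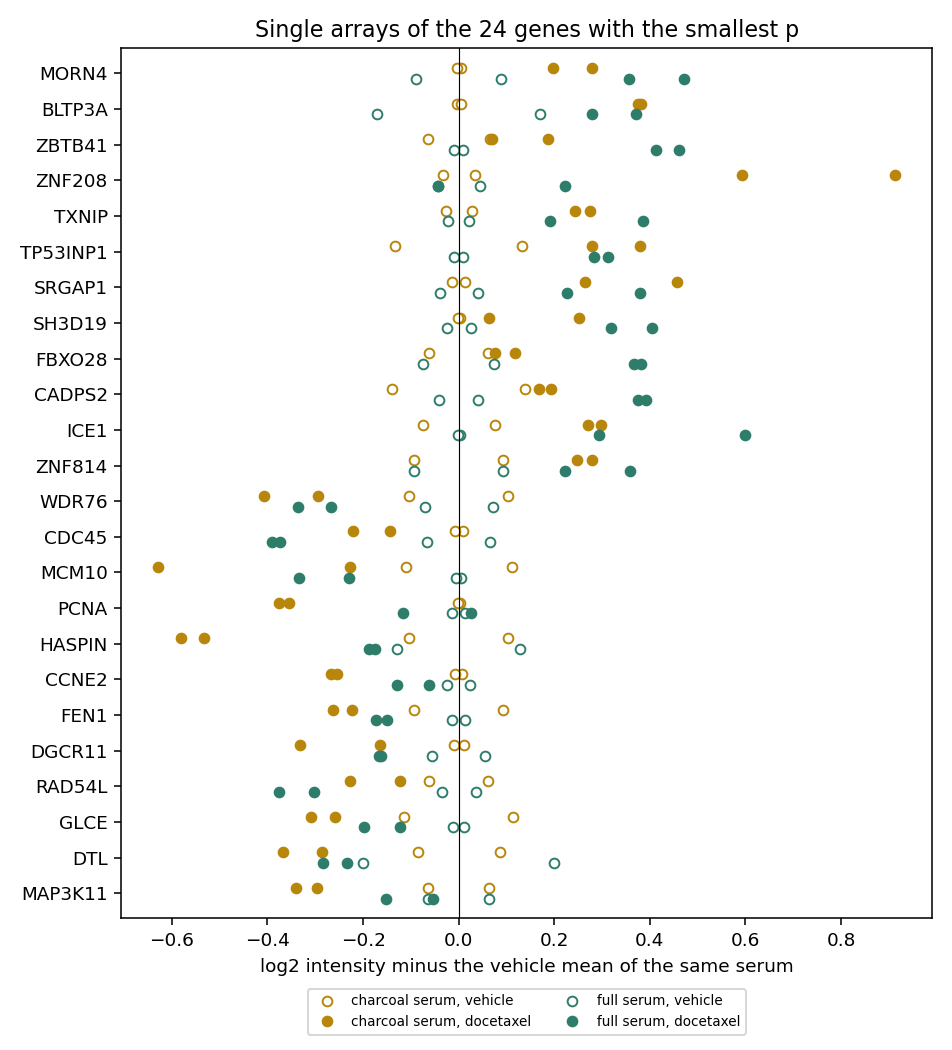
Single arrays of the 24 named genes, as the log2 value minus the vehicle mean of the same serum (open circles vehicle, filled circles docetaxel, in charcoal serum and in full serum). For 11 of the upper 12 and 10 of the lower 12 genes the filled circles of each serum lie clear of its open circles; the genes were chosen by p, and none passed the adjusted threshold.

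The intervals of single genes bound the docetaxel difference in intensity on these arrays, which need not bound the RNA of dim genes. They rest on the spread between arrays that the labels do not say were separate cultures. The dimmest 3702 genes had mean log2 values of 4.33 to 4.801, where the median of all values was 4.48. For 10980 of the 11105 genes (98.9%) the 95% confidence interval of the mean difference lay within 0.5 of 0 on the log2 scale, and for 11102 it lay within 1. The measured difference was over 0.25 for 115 genes and over 0.5 for 2, and the largest was 0.598. Across genes the differences had an SD of 0.0849, where the spread between replicates alone gives 0.0828. In 1 serum the intervals are wider, and they lay within 0.5 for 10370 genes in charcoal serum and for 10467 in full serum.

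At an unadjusted p under 0.05 limma gave 672 genes (6.05%), where 555 are expected by chance, with 448 higher and 224 lower. That split depended on the scaling between arrays. It was 372 higher and 297 lower with each array centred on its median, and 308 higher and 318 lower after quantile normalisation. The lean to higher values grew with brightness, from 46.7% of the dimmest 3702 genes to 53.4% of the next 3701 and 64.9% of the brightest 3702.

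Within charcoal serum 0 genes (0%) were called, with a smallest adjusted p of 0.655 in limma, and 567 genes (5.11%) had an unadjusted p under 0.05, 2.76% higher and 2.35% lower. NKAP, a regulator of transcription and splicing, was the named gene with the smallest p there, at 0.46, with 6.28 and 6.35 against 6.77 and 6.79. It was followed by ZNF208 (0.75), KLF8 (0.30), DDTL (0.28) and BCAS3 (0.34) on the higher side. On the lower side were PCNA (-0.37), PLAGL2 (-0.32), NKX1-2 (-0.41), HASPIN (-0.56) and EIF5A2 (-0.33). PLAGL2, KLF8 and NKX1-2 encode transcription factors and EIF5A2 a translation factor.

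Within full serum 0 genes (0%) were called, with a smallest adjusted p of 0.88 in limma, and 578 genes (5.2%) had an unadjusted p under 0.05, of which 412 were higher (3.71%) and 166 lower (1.49%). The named genes were ZBTB41 (0.44), FBXO28 (0.37), MORN4 (0.41), the adenylate cyclase ADCY1 (0.32) and the dynein adaptor BICD2 (0.40) on the higher side. On the lower side they were HPS1 (-0.34), a gene of lysosome-related organelles, NYX (-0.32), KATNIP (-0.37), CDC45 (-0.38) and the thiol oxidase QSOX2 (-0.33). CDC45 was the one replication gene named on the lower side in full serum, and PCNA the one in charcoal serum.

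The differences of both sera resembled each other little. Across the 11105 genes the charcoal and the full serum difference, which share no arrays, correlated with r = 0.101 (Spearman 0.109), and 5966 genes (53.7%) had the same sign; genes are not independent, so no p is given. At an unadjusted p under 0.05 in each serum there were 44 genes, 30 of them with the same sign. Of the variance over the 8 arrays, serum held 24.7%, docetaxel 13.6% and their interaction 11%, against 12.7% for each of the 4 degrees of freedom within groups.

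**Figure D4:**
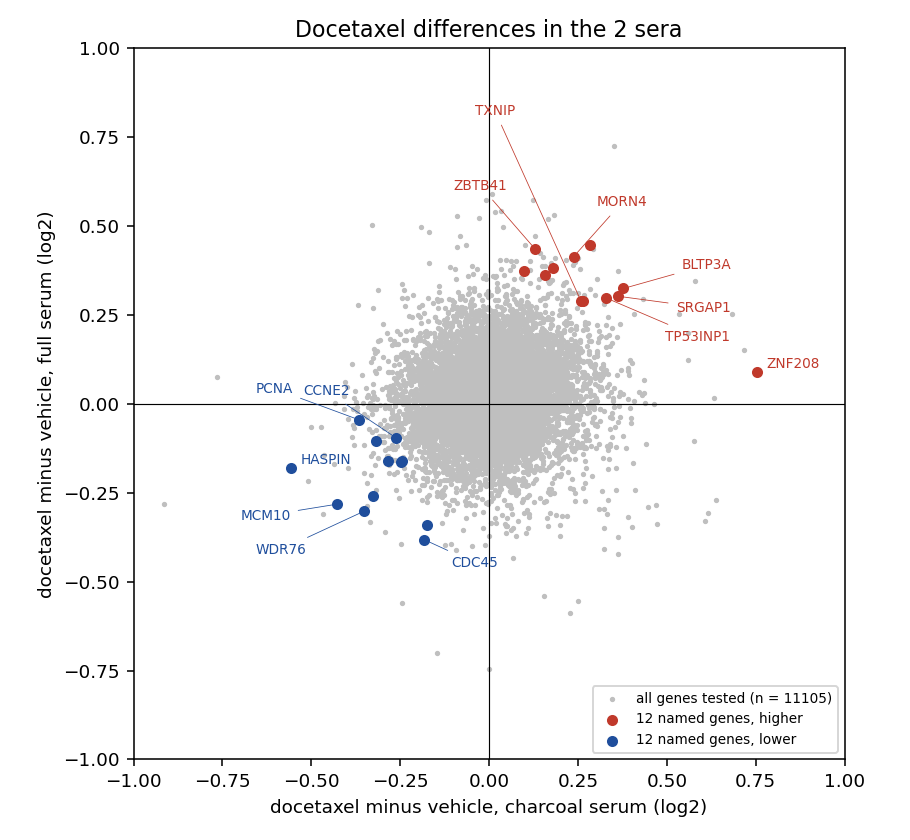
Docetaxel minus vehicle in charcoal serum (x axis) and in full serum (y axis), both on the log2 scale, for the 11105 genes tested (grey) and the 24 named genes (red higher, blue lower). The cloud is nearly round, with r = 0.101 across genes; the 24 named genes lie in the upper right and lower left, as their choice by the mean of both sera makes them.

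Whether docetaxel acted differently in the 2 sera was tested directly, as full minus charcoal. Of 11105 genes 0 (0%) were called, with a smallest adjusted p of 0.999 in limma, and 401 genes (3.61%) had an unadjusted p under 0.05, 263 higher (2.37%) and 138 lower (1.24%). EIF5A2 had the smallest p, with 6.13 and 6.12 against 5.76 and 5.83 in charcoal serum and 5.66 and 5.45 against 5.80 and 5.84 in full serum. The docetaxel arrays lay below vehicle in charcoal serum and above it in full serum, and the difference between the sera was 0.60 (0.35 to 0.85). BICD2 (0.57), PLAGL2 (0.47), SNUPN (0.58), which imports small nuclear ribonucleoproteins, and LIPT2 (0.52), of lipoic acid synthesis, had the same layout.

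Genes whose full minus charcoal difference lay below 0 were NKAP (-0.46), QSOX2 (-0.41), ZNF208 (-0.66), KLF8 (-0.36) and the chemokine CCL21 (-0.57). ZNF208 had 4.86 and 4.79 against 5.74 and 5.42 in charcoal serum and 4.96 and 5.05 against 4.96 and 5.23 in full serum. Its docetaxel arrays were clear of vehicle in charcoal serum only, as were those of NKAP, while those of QSOX2, KLF8 and CCL21 lay above vehicle in charcoal serum and below it in full serum. The intervals of this comparison are wide, and lay within 0.5 of 0 for 8350 genes (75.2%).

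**Figure D5:**
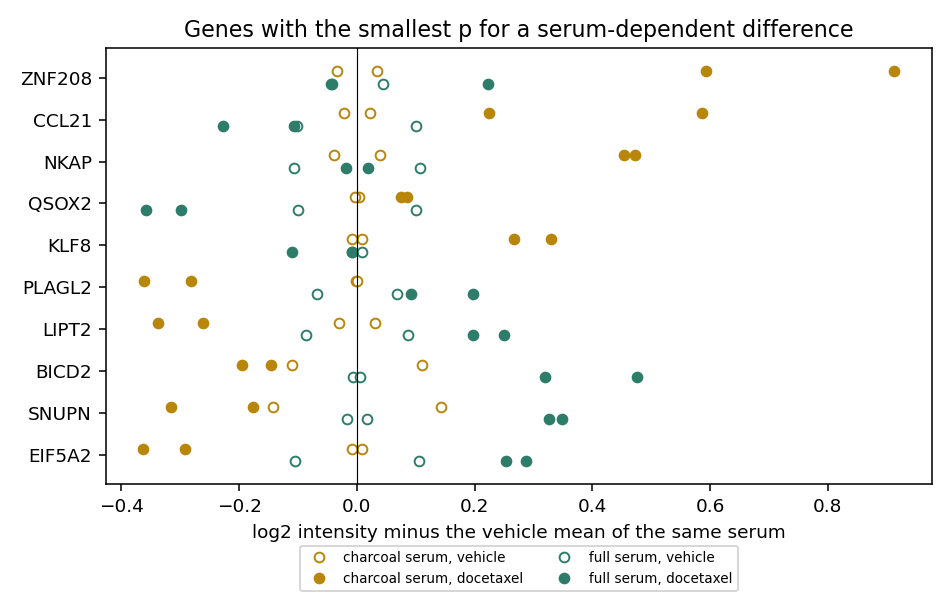
Single arrays of the 10 named genes for the difference between the sera, as the log2 value minus the vehicle mean of the same serum (open circles vehicle, filled circles docetaxel, in charcoal serum and in full serum). EIF5A2 shows docetaxel below vehicle in charcoal serum and above it in full serum; the genes were chosen by p, and the smallest adjusted p in limma was 0.999.

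Docetaxel and cabazitaxel were compared directly at the same dose and time, as 1 pair of compounds, with the p-values adjusted over all genes. Cabazitaxel is the dimethoxy relative of docetaxel, with methoxy groups in place of hydroxyl groups. Of 11105 genes 0 (0%) were called for docetaxel minus cabazitaxel as the mean of both sera, with a smallest adjusted p of 0.244 in limma, and 506 genes (4.56%) had an unadjusted p under 0.05, 327 higher (2.94%) and 179 lower (1.61%). For 10998 genes (99%) the 95% confidence interval of the difference lay within 0.5 of 0. That bounds the difference in intensity on these arrays and does not show that the drugs act alike.

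Since both drugs were set against the same vehicle arrays, their values against vehicle are given side by side only. DNA replication genes had a median of -0.151 with docetaxel and -0.203 with cabazitaxel, and mitosis genes 0.00538 and -0.0478. Docetaxel minus cabazitaxel had a median of 0.0489 over the replication genes, 21 of 26 above 0, and of 0.0612 over the mitosis genes, 38 of 43 above 0; over all genes the median was 0.00976 and 55.4% lay above 0. At an unadjusted p under 0.05, 3 mitosis genes were higher and 0 lower, and no member of either list was called. PCNA stood at -0.21 with each drug, and docetaxel minus cabazitaxel was 0.00040 (-0.11 to 0.11). FEN1 stood at -0.20 with each, with a difference of -0.0020 (-0.12 to 0.12). For TP53INP1 docetaxel minus cabazitaxel was 0.0028 (-0.15 to 0.16). SRGAP1 stood higher with docetaxel than with cabazitaxel by 0.31 (0.15 to 0.48) and CADPS2 by 0.27 (0.12 to 0.41). Each had an adjusted p of 0.958 in limma. The single genes of this paragraph were named for their small p against vehicle. Their docetaxel arrays enter this comparison too, so their values describe them and test nothing.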

How the data were processed

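The deposited values are array intensities on a linear scale, which the authors normalised with RMA after a filter on low-expressing genes, per the submitters' processing notes and series text; neither version nor threshold is given in the sources used here. They ran from 17.32 to 6307.3 over 44629 transcript clusters. The log2 was taken. Of the clusters 15835 had 1 gene symbol in the platform annotation, none had several, and the other 28794 had none and were not analysed; the cluster with the highest mean was kept for each of 14812 genes, and a gene entered the tests, as 11105 did, if 2 or more arrays exceeded the overall median.

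The model was limma 3.58.1 under R 4.3.3 (lmFit and eBayes, 1 mean per group, 12 arrays, 6 residual and 5.08 prior degrees of freedom, two-sided, Benjamini-Hochberg adjustment over all genes, called at 0.05). The fit was tested on simulated data. Nothing in the labels says that replicates were separate cultures, so p-values measure the spread between these arrays. Replicate numbers were not used to pair the arrays in this fit, and whether same-numbered arrays share a batch was not tested. Deviations of same-numbered arrays correlated with 0.0409 to 0.249 over 6 pairs of groups, each above 0. The mean over all genes tested was higher on replicate 1 than on replicate 2 in each group. The fit with the replicate number as a block is given below.

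Named genes are the 12 in each direction with the smallest p for the mean of both sera, since none was called, 5 in each direction for each serum and for the difference between the sera, up to 5 tested members of each list by p, and a fixed set of defining genes. Symbols of small RNAs and uncharacterised genes are not named, only counted: 1343 were tested, with 36 higher and 42 lower at an unadjusted p under 0.05. The comparison and the gene lists were chosen with earlier results of these data known. The lists are described by counts and medians, with no test of a list. Promoters are RefSeq windows matched by symbol. Alternatives varied the arrays, filter, offset, scaling, variance model, cluster choice and test.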

Additional observations from a re-analysis of the deposited data

Results flagged for a closer look

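The mean over the 4 tested fibroblast markers moved in opposite directions in the sera. Docetaxel minus vehicle was 0.0321 in charcoal serum and -0.0981 in full serum, so that full minus charcoal was -0.13, with both docetaxel arrays of a serum on the same side of its vehicle mean. The difference between the sera was not tested. The list was flagged out of 32 lists with tested members. In charcoal serum 2 members were higher and 2 lower, where 50.8% of all genes were higher. In full serum 1 was higher and 3 lower, where 57.5% of all genes were higher. The members did not all share the movement of the mean, and THY1 was lower in both sera. THY1, the member with the smallest p for the mean of both sera, stood at -0.13 and -0.24, near the median of all values, with 4.64 and 4.67 against 4.48 and 4.57 in charcoal serum and 4.82 and 4.77 against 4.50 and 4.59 in full serum.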

How the results depend on the processing

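All 91 counts of called genes computed over the alternatives, in the 5 comparisons, were 0. With the replicate number as a block 0 genes were called too. For docetaxel against vehicle over both sera 867 then had an unadjusted p under 0.05 in limma, against 672 without the block. The methods' t-test called 0 after Benjamini-Hochberg and gave 546 without it; it was not run for the difference between the sera, and the fit without cabazitaxel arrays was not run for the drug comparison. Over all 25724 transcript clusters above the filter, an alternative chosen after seeing the data, limma called 0, with a smallest adjusted p of 0.782. The DNA replication median stayed below 0 in 23 of 23 alternatives, from -0.19 after quantile normalisation to -0.131 without charcoal docetaxel replicate 2. Several alternatives gave the main value of -0.151 again and add no check of it. They were the fits without a cabazitaxel array, on 8 arrays, with the replicate block, without the filter, with the intensity trend and with array weights. Members lower at an unadjusted p under 0.05 in limma numbered 8 with an offset of 16 subtracted, against 13. The p53 median ran from 0.0535 without charcoal docetaxel replicate 1 to 0.16 with the offset.

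Of 2679 gene values 44 changed sign, none of a called gene. After quantile normalisation BAX stood at -0.0074, KIF11 at -0.0061, KIF2C at -0.011 and MAP4 at -0.029, and with arrays centred on their medians KIF2C at -0.0057 and MAP4 at -0.0082; the cause was not tested. Leaving out 1 array at a time gave -0.082 to 0.014 for ATF3, -0.027 to 0.22 for AURKA, -0.0043 to 0.23 for BAD, -0.046 to 0.070 for BAX, -0.045 to 0.13 for BCL2, -0.043 to 0.10 for BCL2L1, -0.11 to 0.055 for DDIT3, -0.055 to 0.098 for FKBP5, -0.032 to 0.22 for FOLH1, -0.12 to 0.035 for FOS, -0.15 to 0.063 for FOXO1, -0.028 to 0.084 for KIF11, -0.078 to 0.083 for KIF2C, -0.13 to 0.038 for KLK2, -0.061 to 0.061 for MAP4, -0.17 to 0.056 for MKI67 and -0.0014 to 0.054 for STMN1.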

Other observations

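Of 420 tested genes with a numbered ZNF symbol, which encode zinc finger proteins, 261 were higher and 159 lower with docetaxel over both sera, with a median of 0.0352 beside 0.00913 for all genes. At an unadjusted p under 0.05, 27 were higher and 5 lower in limma, where 4.03% of all genes were higher and 2.02% lower. The 27 became 18 without charcoal vehicle replicate 1. The 5 became 11 without charcoal docetaxel replicate 1, 10 without charcoal vehicle replicate 2 or full docetaxel replicate 1, 9 without any 1 of the full vehicle arrays and 8 without charcoal docetaxel replicate 2. The docetaxel arrays lay wholly above vehicle in both sera for 29 and wholly below for 1, as for 4.47% and 2.57% of all genes. None was called. Of the 100 that were among the brightest 3702 genes 79 were higher, as were 64.9% of those 3702. The counts were 246 higher and 174 lower with arrays centred on their medians and 248 and 172 after quantile normalisation. ZNF770 stood at 0.29, ZNF217, an oncogene of epithelial tumours, at 0.22 and ZNF280D at 0.19. Of 39 ZBTB genes 27 were higher and 12 lower, with ZBTB40 at 0.19 and ZBTB10 at 0.09.

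Stress programmes stood near vehicle. Of 15 genes of the endoplasmic reticulum and ATF4 response 6 were higher and 9 lower, with a median of -0.0286; ASNS, which makes asparagine, stood at 0.11, MANF, an endoplasmic reticulum stress protein, at -0.12 and DDIT3 at -0.03 (-0.28 to 0.22), with ATF3 at -0.03 (-0.23 to 0.16). Of 11 heat shock genes 8 were higher, with HSPA4 and HSPD1 at 0.12 each. Of 14 genes of the NRF2 and oxidative stress list 10 were higher, with PRDX1 at 0.13 and HMOX1 at -0.12. Metallothioneins, which bind zinc, were higher in 4 of 7, with MT1G at 0.26 (0.11 to 0.41) and MT1F at 0.21 (-0.05 to 0.47). Of 12 interferon-response genes 9 were higher, with RIGI, an RNA sensor, at 0.27 and USP18 at 0.23.

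Of 12 NF-kappaB genes 5 were higher and 7 lower, and NFKB1 itself stood at 0.20. Of 23 genes of the immediate early, SRF and YAP list 13 were higher and 10 lower, with EGR1 at 0.16, MYC at 0.13, JUN at 0.11 and FOS at -0.04. Of 17 cholesterol synthesis genes 7 were higher and 10 lower, with MVD at -0.22 and IDI1 at 0.13. Of 21 autophagy and lysosome genes 13 were higher and 8 lower, with a median of 0.0573, which was 0.00105 in charcoal and 0.101 in full serum. Of 46 cytosolic ribosomal protein genes 28 were higher and 18 lower, with RPS18 at 0.26 and RPS21 at -0.11. None of these genes was called.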
